A study of Mus musculus with 6 samples.

Results

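MHC class II molecules display peptides from the endosomes of antigen-presenting cells to CD4+ T cells. The 10 genes described here were picked by symbol from a count table of 55573 mouse genes. They are H2-Aa, H2-Ab1 and H2-Eb1, which encode class II chains, and Cd74, which encodes the invariant chain. H2-DMa, H2-DMb1 and H2-DMb2 encode the H2-DM peptide editor and Ciita the class II transactivator. Xcr1 and Flt3, receptor genes of dendritic cells and of progenitors, complete the set. All 10 passed the filter on low counts that left 16493 genes for testing.

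The table comes from mRNA sequencing of 3 WT (wild-type) and 3 Abcc4-/- libraries. All 6 carry the cell type label megakaryocytes, the cells that form platelets. Abcc4 encodes a membrane pump for organic anions, cyclic nucleotides among them. The sample titles contain CD41, a surface protein of megakaryocytes. How cells were selected, which part of Abcc4 is deleted, and the animals' strain, age and treatment are not given in the sources used here. This comparison asks how these transcripts differ between the genotypes. Whether the 3 libraries of a group stem from different animals is not stated, so the spread behind each p-value may be technical.

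The invariant chain blocks the peptide groove of new class II molecules and guides them to endosomes, where cathepsins digest it to a short peptide. H2-DM then exchanges that peptide for peptides of digested proteins, and H2-O, made from H2-Oa and H2-Ob, restrains H2-DM. Ciita protein does not bind DNA itself. It joins RFX, NF-Y and CREB factors on the X and Y boxes of class II promoters and so sets which cells make class II: mainly B cells, dendritic cells and activated macrophages.

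The libraries held 50440283 to 55123551 counts in WT and 67009967 to 99294510 in Abcc4-/-. Every Abcc4-/- library was deeper than every WT library. CPM, a library's counts scaled to a fixed total with TMM factors, puts them on 1 scale, where 3 counts correspond to 0.0304 to 0.0591 CPM. Abcc4 was measured at 74.2, 71.8 and 75.7 CPM in WT and at 60.1, 60.5 and 62.3 CPM in Abcc4-/-. This gene-wide value does not check the genotype labels, because the deleted part is not known. Of the 16493 genes tested, 17.3% passed an adjusted p of 0.05 by edgeR (quasi-likelihood). Of these, 1420 were higher in Abcc4-/- and 1432 lower. On log2(TPM + 1), where TPM is a level per transcript length, limma gave 599 higher and 1512 lower. Megakaryocyte genes were present at modest levels in both groups. For Itga2b, which encodes CD41, WT had 158 ± 17.3 and Abcc4-/- 96.1 ± 13.8 CPM (SD, n = 3). All 12 megakaryocyte and platelet markers of the list used here summed to 288 to 347 CPM in WT and 199 to 239 CPM in Abcc4-/-. In the same libraries 9 neutrophil markers summed to 21172 to 27514 CPM in WT and 36633 to 39221 CPM in Abcc4-/-. The share of megakaryocytes in the samples was not tested.

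Class II genes were lower in Abcc4-/-. Of the 10 genes, 8 were called lower and 0 higher (edgeR, adjusted p below 0.05); DESeq2 and limma-voom also called 0 higher, and 0 were higher at an unadjusted edgeR p below 0.05. As background, 8.68% of all genes tested were called lower and 8.61% higher. H2-DMb2 and Flt3 did not pass. The 2 groups did not overlap for 9 of the 10 genes, each lower in Abcc4-/-, where 18.3% of all genes tested had groups apart in that direction and 36.8% in either. The median log2 fold change of the 10 was -0.34, and that of all genes tested was 0.000909. The genes were proposed with earlier results of these data known, so these counts describe them and are no test of the group.

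**Figure D1:**
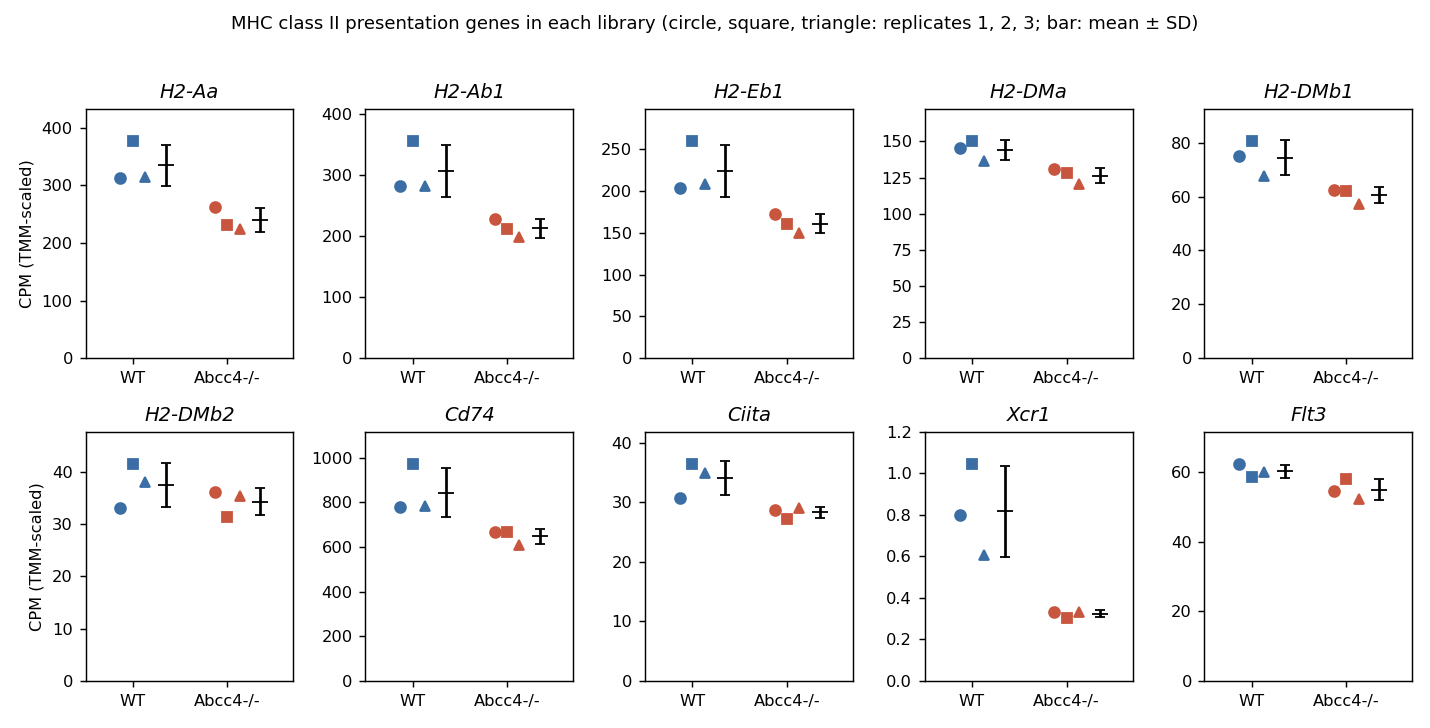
CPM of the 10 genes in each library (y axis from 0, 1 panel per gene), with WT in blue and Abcc4-/- in red; circles, squares and triangles are replicates 1, 2 and 3, and black bars give the mean ± SD of 3 libraries. The groups overlap in 1 panel, H2-DMb2, and WT replicate 2 is the highest library in 9 panels.

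Of the 10 genes, 6 lie in the class II region of chromosome 17 (GRCm38, GENCODE annotation). In chromosomal order these are H2-DMa (34119541 to 34139101, plus strand), H2-DMb2 (34143307 to 34151555, plus), H2-DMb1 (34153072 to 34160230, plus), H2-Ab1 (34257689 to 34269419, plus), H2-Aa (34282744 to 34287823, minus) and H2-Eb1 (34305867 to 34316674, plus). Ciita lies on chromosome 16 (10480059 to 10528418, plus), Xcr1 on chromosome 9 (123852315 to 123862029, minus) and Flt3 on chromosome 5 (147330741 to 147400489, minus). Promoter sequences from RefSeq (GRCm38.p6) were matched for 7 of the 10; H2-Ab1, Cd74 and Ciita had no entry in the table.

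The stretches below come from promoters of the class II region and show letters of the boxes that class II promoters share. Each line gives 100 bases around TGATTGG, upstream of the RefSeq transcription start and on the gene's own strand. For some genes this start differs from the GENCODE start. The H2-DMb2 stretch lies inside the GENCODE gene interval given above, and those of H2-DMb1 and H2-Oa cross the GENCODE gene start. Capitals mark TGATTGG, which holds the ATTGG core of the Y box (an inverted CCAAT), and, where present, GATGATG or GCAACNG, which resemble parts of the X box.
H2-Aa, chr17:34287844-34287943, minus strand: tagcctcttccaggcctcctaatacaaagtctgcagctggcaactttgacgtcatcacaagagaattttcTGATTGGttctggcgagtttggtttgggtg
H2-Eb1, chr17:34305736-34305835, plus strand: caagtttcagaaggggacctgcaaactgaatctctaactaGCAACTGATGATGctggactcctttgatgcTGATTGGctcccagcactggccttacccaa
H2-DMb1, chr17:34153058-34153157, plus strand: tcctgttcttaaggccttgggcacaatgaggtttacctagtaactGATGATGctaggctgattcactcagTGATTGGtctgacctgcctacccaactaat
H2-DMb2, chr17:34145087-34145186, plus strand: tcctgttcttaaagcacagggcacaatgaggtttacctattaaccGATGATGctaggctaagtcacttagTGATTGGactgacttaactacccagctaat
H2-Oa, chr17:34092264-34092363, plus strand: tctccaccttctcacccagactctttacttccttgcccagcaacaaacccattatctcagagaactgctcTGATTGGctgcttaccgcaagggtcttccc
H2-Ob, chr17:34238776-34238875, plus strand: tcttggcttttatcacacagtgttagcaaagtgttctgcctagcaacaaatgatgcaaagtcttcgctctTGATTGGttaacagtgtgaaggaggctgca

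Motifs were searched on both strands of the 250 bases before the start of 32851 RefSeq promoters. ATTGG was found in 33.8% of them and GCAACNG in 10.2%. TGATTGG, which contains ATTGG, was found in 7.23%, and GATGATG in 2.92%. The last pair of motifs was written down after these sequences were seen. TGATTGG begins between 45 and 92 bases before the start in the 6 promoters printed. H2-Eb1, H2-DMb1 and H2-DMb2 hold GATGATG, and H2-Eb1 alone of the 6 holds GCAACNG. Neither annotated H2-DMa promoter, nor those of Xcr1 and Flt3, holds TGATTGG. A match is a description of letters, and no match says only that these letters are absent from the window. Whether these letters bear on the fold changes was not tested.

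The class II chain genes fell by similar amounts. H2-Aa, which encodes the alpha chain of the I-A molecule, was measured at 313, 376 and 314 CPM in WT and at 263, 231 and 224 CPM in Abcc4-/-. All Abcc4-/- libraries lay below all WT libraries, and WT replicate 2 was the highest. The level was 28.4% lower in Abcc4-/- (log2 fold change -0.48, SE 0.09; edgeR adjusted p = 0.0044). H2-Ab1, which encodes the I-A beta chain, stood at 282, 355 and 281 CPM in WT and at 228, 211 and 197 CPM in Abcc4-/-. It was 30.7% lower (log2 fold change -0.53, SE 0.10; edgeR adjusted p = 0.0071), again without overlap. H2-Eb1, which encodes the beta chain of I-E, stood at 204, 259 and 209 CPM in WT and at 172, 161 and 150 CPM in Abcc4-/-. It was 28.2% lower (log2 fold change -0.48, SE 0.10; edgeR adjusted p = 0.0111). For these 3 genes replicate 2 was the highest WT library and replicate 3 the lowest Abcc4-/- library. Without WT replicate 2 the log2 fold changes of H2-Aa, H2-Ab1 and H2-Eb1 were -0.39, -0.41 and -0.36, each still called by edgeR.

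The related chain gene H2-Eb2 was low in both groups, with means of 5.52 ± 0.925 CPM (WT) and 5.39 ± 0.782 CPM (Abcc4-/-; SD, n = 3). It was not called (log2 fold change -0.04, 95% interval -0.35 to 0.28; edgeR adjusted p = 0.898). H2-Ea-ps, annotated as a polymorphic pseudogene for the I-E alpha chain, held 8 counts over the 6 libraries and was not tested.

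Cd74 was the most abundant of the 10 and fell with the chains. It stood at 778, 971 and 783 CPM in WT and at 667, 667 and 610 CPM in Abcc4-/-. The groups did not overlap, and the level was 23.2% lower in Abcc4-/- (log2 fold change -0.38, SE 0.09; edgeR adjusted p = 0.0135). The ratio of Cd74 to the geometric mean of the 3 chain genes, in CPM, was 2.97, 2.98 and 2.97 in WT and 3.07, 3.36 and 3.25 in Abcc4-/-. All 3 Abcc4-/- ratios were above the WT ratios (log2 difference 0.12; two-sided exact permutation p = 0.1; adjusted over 3 ratios, 0.3). No split of 3 against 3 can give a smaller p. The ratio of Ciita to the same chains was 0.117, 0.112 and 0.132 in WT and 0.131, 0.137 and 0.155 in Abcc4-/-, and the groups overlapped (log2 difference 0.23; exact permutation p = 0.2, adjusted 0.3).

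Of the H2-DM genes, H2-DMa and H2-DMb1 were called lower, by smaller amounts than the chains. H2-DMa, the alpha chain gene, stood at 146, 150 and 136 CPM in WT and at 131, 128 and 120 CPM in Abcc4-/-. The groups came close without overlapping (12.2% lower; log2 fold change -0.19, SE 0.05; edgeR adjusted p = 0.0359). This call was lost when any library except WT replicate 3 was left out (edgeR adjusted p = 0.0561 to 0.139). H2-DMb1, a beta chain gene, stood at 75.2, 80.6 and 67.7 CPM in WT and at 62.4, 62.3 and 57.2 CPM in Abcc4-/-. It was 18.6% lower without overlap (log2 fold change -0.30, SE 0.07; edgeR adjusted p = 0.0111). H2-DMb2, the other beta chain gene, stood at 33.1, 41.5 and 38.1 CPM in WT and at 36.1, 31.3 and 35.4 CPM in Abcc4-/-. These ranges overlapped, and the gene was not called (log2 fold change -0.13, 95% interval -0.32 to 0.06; edgeR adjusted p = 0.335).

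H2-DMb1 and H2-DMb2 are similar in sequence, so how the counts of reads they share were divided is uncertain. Their first annotated transcripts, of 1404 and 1424 bases, aligned over 1246 bases with 94.7% identity and an identical run of up to 221 bases. Their expected counts were not whole numbers in 5 of 6 libraries, while those of the other 8 genes were whole in all 6. In each library the 2 values added up to a whole number, within 0.005, as with 4133.60 and 1818.40 in WT replicate 1, which give 5952. Summed to 1 gene, they stood at 108, 122 and 106 CPM in WT and at 98.5, 93.6 and 92.6 CPM in Abcc4-/- (log2 fold change -0.24, SE 0.06; edgeR adjusted p = 0.0194). The ratio of H2-DMb1 to H2-DMb2 was 2.27, 1.94 and 1.78 in WT and 1.73, 1.99 and 1.61 in Abcc4-/-, with overlap (two-sided exact permutation p = 0.3, where 0.1 is the smallest possible). H2-DMa overlaps Brd2 on the opposite strand.

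Ciita was lower as well. It stood at 30.8, 36.4 and 34.9 CPM in WT and at 28.6, 27.2 and 29.0 CPM in Abcc4-/-. The lowest WT library lay close above the highest Abcc4-/- library, and the level was 16.9% lower (log2 fold change -0.27, SE 0.07; edgeR adjusted p = 0.0178). The call was lost without WT replicate 2, Abcc4-/- replicate 1 or Abcc4-/- replicate 2 (edgeR adjusted p = 0.0578 to 0.0822). Among 18 genes for the factors that work with Ciita or control it, 1 was called higher and 1 lower, with a median log2 fold change of -0.01. Over all genes tested, 17.3% were called in either direction. Ifngr2, a chain of the interferon-gamma receptor whose signal induces Ciita, rose from 81.2 ± 4.66 to 98.3 ± 1.13 CPM (SD, n = 3; edgeR adjusted p = 0.0048). The other chain gene, Ifngr1, named after its values were seen, was lower without overlap, at 260 ± 14.1 and 237 ± 5.51 CPM. It was not called (log2 fold change -0.13; edgeR adjusted p = 0.123). Prdm1, a repressor of Ciita in plasma cells, fell from 4.91 ± 0.361 to 3.51 ± 0.393 CPM (edgeR adjusted p = 0.0170). It lost its call without WT replicate 3 or Abcc4-/- replicate 1 or 3 (edgeR adjusted p = 0.0503 to 0.0663) and on both TPM scales (0.0620 and 0.0677). The RFX genes Rfx5, Rfxank and Rfxap, the NF-Y genes Nfya, Nfyb and Nfyc, and Creb1, named after their values were seen, did not pass.

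Xcr1 had the largest fold change and the lowest level of the 10. It encodes the chemokine receptor that marks type 1 conventional dendritic cells (cDC1), which present to CD8+ as well as CD4+ T cells. The libraries held 44, 53 and 33 Xcr1 counts in WT and 22, 30 and 27 in the deeper Abcc4-/- libraries, or 0.801, 1.04 and 0.606 CPM against 0.332, 0.304 and 0.334 CPM. The lowest WT library was well above each Abcc4-/- library, and the WT libraries were spread more widely. The level was 2.52-fold lower in Abcc4-/- (log2 fold change -1.33, SE 0.26; edgeR adjusted p = 0.0049). With so few counts the size is loosely set: the 95% interval ran from -1.90 to -0.77. On log2(TPM + 1), which understates changes of low genes, the difference was -0.20, and on log2(TPM + 0.1) it was -0.86.

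Flt3, the receptor for a growth factor that dendritic cells and their progenitors need, stood at 62.2, 58.4 and 59.9 CPM in WT and at 54.6, 58.0 and 52.2 CPM in Abcc4-/-. The groups were separated only by a narrow gap between WT replicate 2 and Abcc4-/- replicate 2. The gene did not pass over all genes tested (log2 fold change -0.13, 95% interval -0.25 to -0.01; unadjusted p = 0.0339, edgeR adjusted p = 0.126). Its ligand gene Flt3l, named after its value was seen, was not called either (18.3 ± 0.999 to 16.6 ± 1.29 CPM; SD, n = 3; edgeR adjusted p = 0.212).

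Per transcript length, Cd74 had the highest level and Xcr1 the lowest. The mean TPM in WT and Abcc4-/- was 1171 and 854 for Cd74, 471 and 326 for H2-Aa, 482 and 306 for H2-Ab1, and 349 and 236 for H2-Eb1. It was 210 and 176 for H2-DMa, 88.5 and 68.9 for H2-DMb1, 41.5 and 36.0 for H2-DMb2, 23.7 and 20.4 for Flt3, 9.04 and 6.94 for Ciita, and 0.26 and 0.0967 for Xcr1. H2-Aa and H2-Ab1 were not separated, since each was the higher in 3 of 6 libraries. Every other neighbour in this order, from Cd74 down, was ranked the same way in all 6 libraries. Together the 10 genes took 0.263 to 0.316% of TPM in WT and 0.196 to 0.209% in Abcc4-/-.

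Of 11 peptide loading and processing genes tested, 2 were called, Cd82 higher and March1 lower, where 17.3% of all genes tested were called in either direction, and the median log2 fold change was -0.06. March1, which marks class II molecules for removal from the surface, fell from 93.3 ± 7.40 to 81.1 ± 1.96 CPM (SD, n = 3; edgeR adjusted p = 0.0410). That call was lost without any library except WT replicate 2 (edgeR adjusted p = 0.0601 to 0.140) and on log2(TPM + 1) (0.0544). Cd82, a tetraspanin gene of the loading compartment, rose from 95.6 ± 5.62 to 110 ± 2.18 CPM (edgeR adjusted p = 0.0241). It lost its call without Abcc4-/- replicate 1 or 2 (0.0731 and 0.0917) and on both TPM scales (0.134 and 0.137).

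Other genes of this list were named after their values were seen. H2-Ob, the beta chain gene of the H2-DM inhibitor, had 65.5 ± 6.69 CPM (WT) and 65.9 ± 4.51 CPM (Abcc4-/-) (95% interval of the log2 fold change -0.16 to 0.18). H2-Oa stood at 24.1 ± 3.60 and 22.3 ± 0.514 CPM (95% interval -0.32 to 0.10). Neither was called (edgeR adjusted p = 0.953 and 0.479). Their difference from H2-Ab1 was not tested. Ctss, the cathepsin that trims the invariant chain, had 444 ± 31.2 CPM (WT) and 395 ± 24.0 CPM (Abcc4-/-) and did not pass (edgeR adjusted p = 0.110). Of 13 class I presentation genes, 0 were called, with log2 fold changes from -0.13 to 0.14 (edgeR; 0 also at an unadjusted p below 0.05, and 0 by DESeq2 and by limma-voom). On the log2(TPM + 1) and log2(TPM + 0.1) scales limma called 1 of them lower. Over all genes tested, edgeR called 17.3% in either direction. B2m, the light chain of class I, also named after its values were seen, stood at 1143 ± 56.3 and 1158 ± 102 CPM (SD, n = 3). Psmb9, an immunoproteasome subunit gene with the smallest p of this list, stood at 89.1, 95.4 and 77.6 CPM in WT and at 96.1, 101 and 91.7 CPM in Abcc4-/- (edgeR adjusted p = 0.218).

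**Figure D2:**
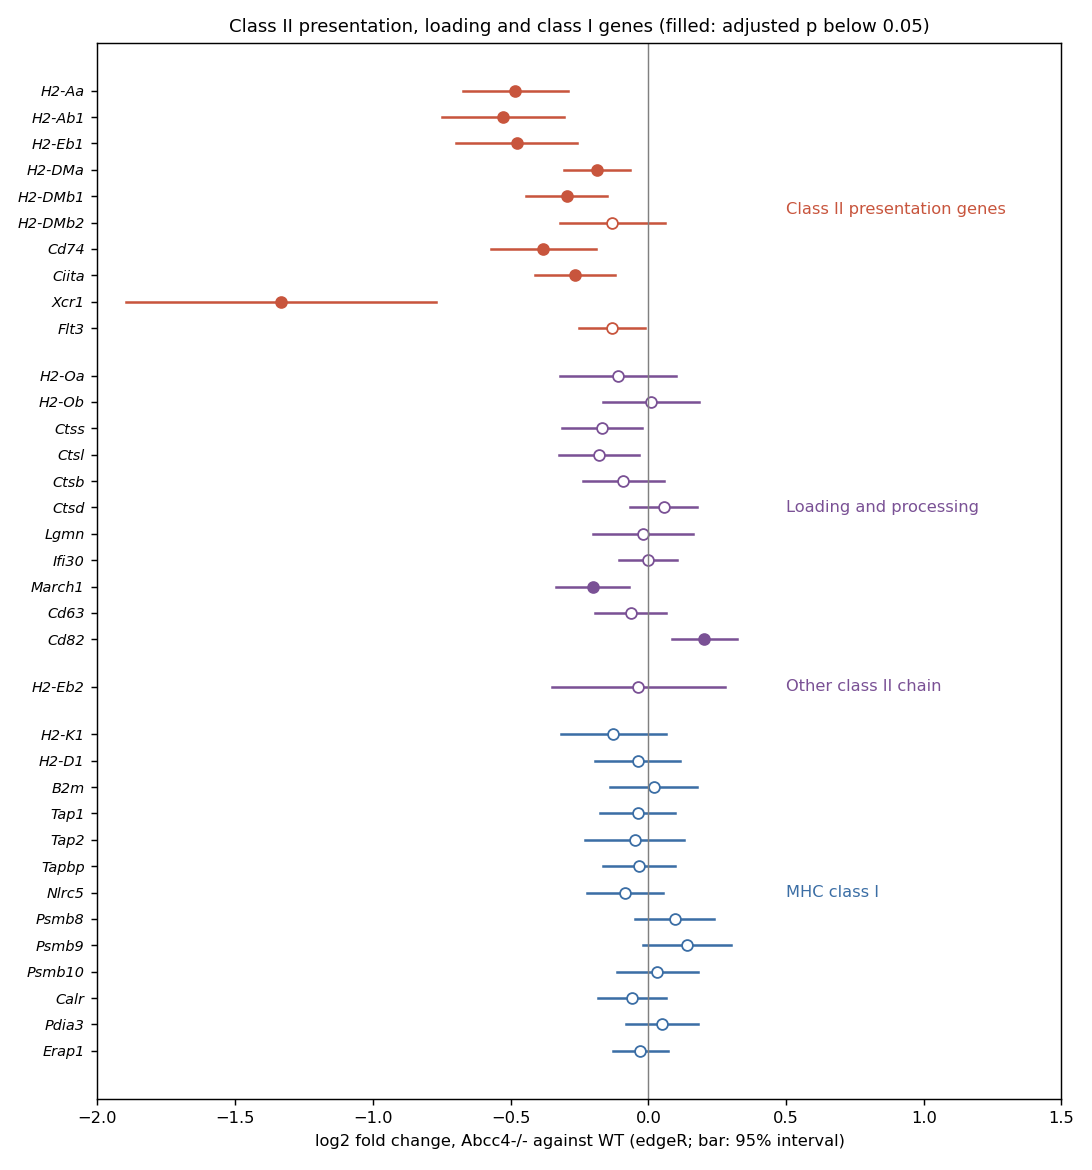
Log2 fold change of Abcc4-/- against WT (x axis) with 95% intervals for the 10 class II presentation genes (red), loading and processing genes and H2-Eb2 (purple) and class I genes (blue); filled points passed an adjusted p of 0.05. The intervals of the 10 genes lie below 0 except that of H2-DMb2, and those of the 13 class I genes all include 0. Flt3, with an interval just below 0, was not called.

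By edgeR, which called 17.3% of all genes tested, neighbouring genes of the class II region gave 1 call. Of 14 other tested genes with a functional symbol from 100 kb before H2-DMa to 100 kb after H2-Eb1, that was Brd2, a chromatin reader gene, which fell from 417 ± 28.7 to 347 ± 2.13 CPM (SD, n = 3; log2 fold change -0.27; edgeR adjusted p = 0.0099). Tap1, Tap2, Psmb8, Psmb9 and H2-Ob, which lie between H2-DMb1 and H2-Ab1, had log2 fold changes of -0.04, -0.05, 0.10, 0.14 and 0.01. Rxrb, a nuclear receptor gene, was not called by edgeR (log2 fold change -0.15; adjusted p = 0.0666) but was with library totals (0.0477), on both TPM scales (0.0378 and 0.0351) and without WT replicate 3 (0.0453). Col11a2, a collagen gene, was called lower by DESeq2 (adjusted p = 0.0461) and not by edgeR (0.135). Of Tap1, Tap2, Psmb8, Psmb9 and H2-Ob none was called by edgeR, while the genes on both sides of them were called lower.

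**Figure D3:**
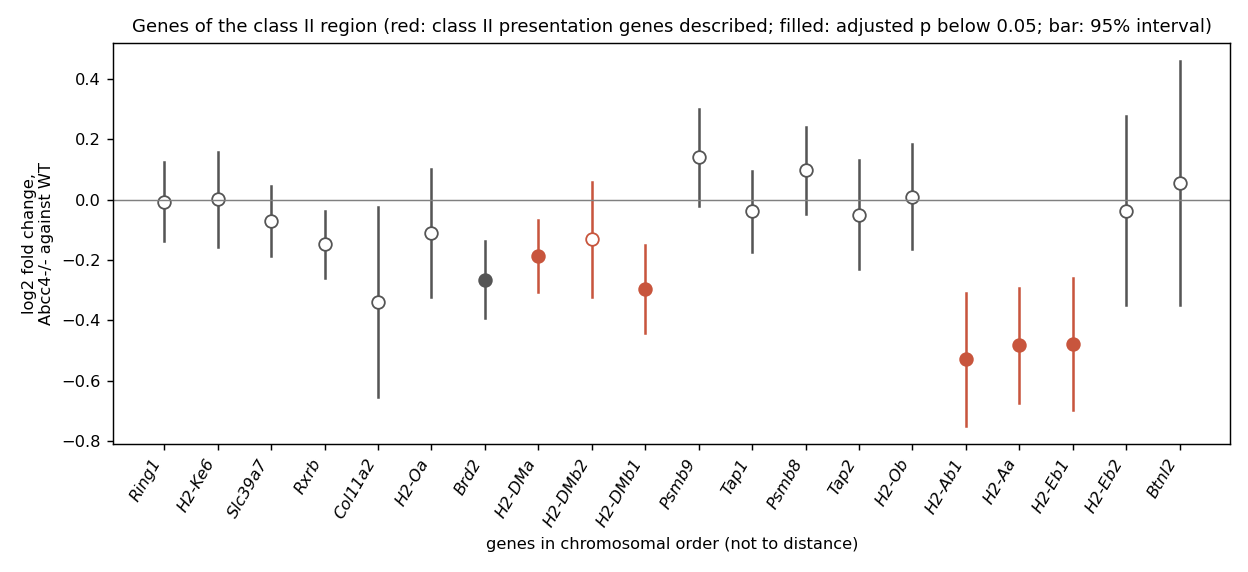
Log2 fold change of Abcc4-/- against WT (y axis) with 95% intervals for 20 tested genes of the class II region in chromosomal order (x axis, not to distance); red marks the 6 class II presentation genes and filled points passed an adjusted p of 0.05. The 5 genes between H2-DMb1 and H2-Ab1 lie near 0, and H2-Ab1, H2-Aa and H2-Eb1 lie near -0.5.

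Markers of the cells that make class II differed in direction from list to list. Counts of whole samples cannot tell fewer cells of a type from less RNA per cell. As background for the list counts, edgeR called 8.68% of all genes tested lower and 8.61% higher. Among 13 B cell markers, 5 were called higher and 0 lower by edgeR (0 lower also at an unadjusted p below 0.05, by DESeq2 and by limma-voom; median log2 fold change 0.37), and summed they stood at 1658 to 1996 CPM in WT and 2297 to 2593 CPM in Abcc4-/-. Cd79b and Blk, a receptor signalling chain and a kinase gene, rose 1.63-fold and 1.45-fold (edgeR adjusted p = 0.0052 and 0.0044). Cd79a rose 1.58-fold (edgeR adjusted p = 0.0113), a call lost without WT replicate 3 (0.0611). All 7 early B cell markers were called higher, among them Dntt (2.35-fold), Rag2 (3.42-fold) and Vpreb1 (3.28-fold). The early B cell count fell to 4 without Abcc4-/- replicate 2, and the B cell count to 3 without Abcc4-/- replicate 1 or 2. The early B cell markers summed to 103 to 151 CPM in WT and 276 to 335 CPM in Abcc4-/-. The mature B cell genes Fcer2a and Cr2, named after their values were seen, were not called (log2 fold changes -0.03 and -0.14; edgeR adjusted p = 0.841 and 0.401).

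Dendritic cell markers were called in both directions, against the 17.3% of all genes tested that were called. Tlr3, Zbtb46, Klf4, Clec4a1 and Runx2 were called lower, and Cd8a and Spib, which T or B cells also express, higher. Xcr1, called lower above, is left out of the cDC1 list because it is among the 10 genes. Of 10 cDC1 markers, Tlr3 was called lower and Cd8a higher. Tlr3, a receptor for double-stranded RNA, fell from 2.64 ± 0.240 to 1.64 ± 0.276 CPM (SD, n = 3; edgeR adjusted p = 0.0131). Cd8a, which T cells also express, rose from 3.66 ± 0.773 to 6.49 ± 1.19 CPM (edgeR adjusted p = 0.0101). The cDC1 receptor gene Clec9a, named after its value was seen, stood at 11.5 ± 0.721 and 10.5 ± 0.204 CPM and was not called (edgeR adjusted p = 0.277). Summed, the cDC1 markers stood at 1115 to 1164 CPM in WT and 1109 to 1191 CPM in Abcc4-/-, ranges that overlap. Irf8 and Wdfy4, named after their values were seen, made up 847 to 893 CPM of that in WT and 848 to 910 CPM in Abcc4-/-. The other 8 summed to 267 to 283 CPM in WT and 261 to 281 CPM in Abcc4-/-, again with overlap. Naaa and Ppt1, named after their values were seen, made up most of that: 144 and 105 CPM in WT, 133 and 111 CPM in Abcc4-/- (means). Markers at low levels hardly move such sums. Batf3, also named after its value was seen, stood at 2.82 ± 0.298 and 2.14 ± 0.433 CPM and was not called (edgeR adjusted p = 0.134). Of the 10 markers, 7 had negative log2 fold changes, where 8209 of 16493 genes tested did. Of 6 markers shared by dendritic cells, 1 was called: Zbtb46, a transcription factor gene of conventional dendritic cells, fell from 4.66 ± 0.250 to 3.20 ± 0.463 CPM (edgeR adjusted p = 0.0139). Tlr3 and Zbtb46 both lost their calls without Abcc4-/- replicate 1 (edgeR adjusted p = 0.0559 for each), and Tlr3 on log2(TPM + 0.1) (0.0534).

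Of 9 markers of the other conventional type, cDC2, Klf4 and Clec4a1 were called lower (3 genes by DESeq2 and by limma-voom). Klf4, a transcription factor gene also active in monocytes, fell 2.06-fold (edgeR adjusted p = 7.5e-05). Clec4a1 fell 1.17-fold (edgeR adjusted p = 0.0283) and lost its call without WT replicate 1 or any Abcc4-/- replicate (0.0504 to 0.109). The cDC2 markers summed to 1090 to 1225 CPM in WT and 919 to 957 CPM in Abcc4-/-. Without Klf4 the sums were 747 to 800 CPM in WT and 723 to 765 CPM in Abcc4-/-, which overlap. Sirpa, named after its values were seen, made up most of that, at 501 ± 41.2 and 510 ± 16.8 CPM (SD, n = 3). Of the 9 markers, 4 were lower in Abcc4-/- without overlap, where 18.3% of all genes tested were. Cd209a, 1 of these and also named after its values were seen, fell from 35.6 ± 2.88 to 28.2 ± 4.11 CPM (edgeR adjusted p = 0.0582). Of 9 plasmacytoid dendritic cell markers, Runx2 was called lower and Spib, also a B cell factor, higher (edgeR adjusted p = 0.0062 and 0.0160). Spib lost its call without any 1 of the Abcc4-/- libraries (0.0523 to 0.0555) or without a low-count filter (0.0642). Of 11 monocyte and macrophage markers, 2 were called lower by edgeR (3 by DESeq2, 1 by limma-voom), where 8.68% of all genes tested were. These were Csf1r and Adgre1 (1.18-fold each; edgeR adjusted p = 0.0313 and 0.0482), and both calls were lost without some libraries, up to an adjusted p of 0.116 and 0.143. Adgre1 was also not called by limma-voom (adjusted p = 0.051) or by limma on log2(TPM + 1) and log2(TPM + 0.1) (0.071 and 0.065). No gene of these lists was at 0 in all libraries. The part of any cell type in the class II difference was not tested.

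**Figure D4:**
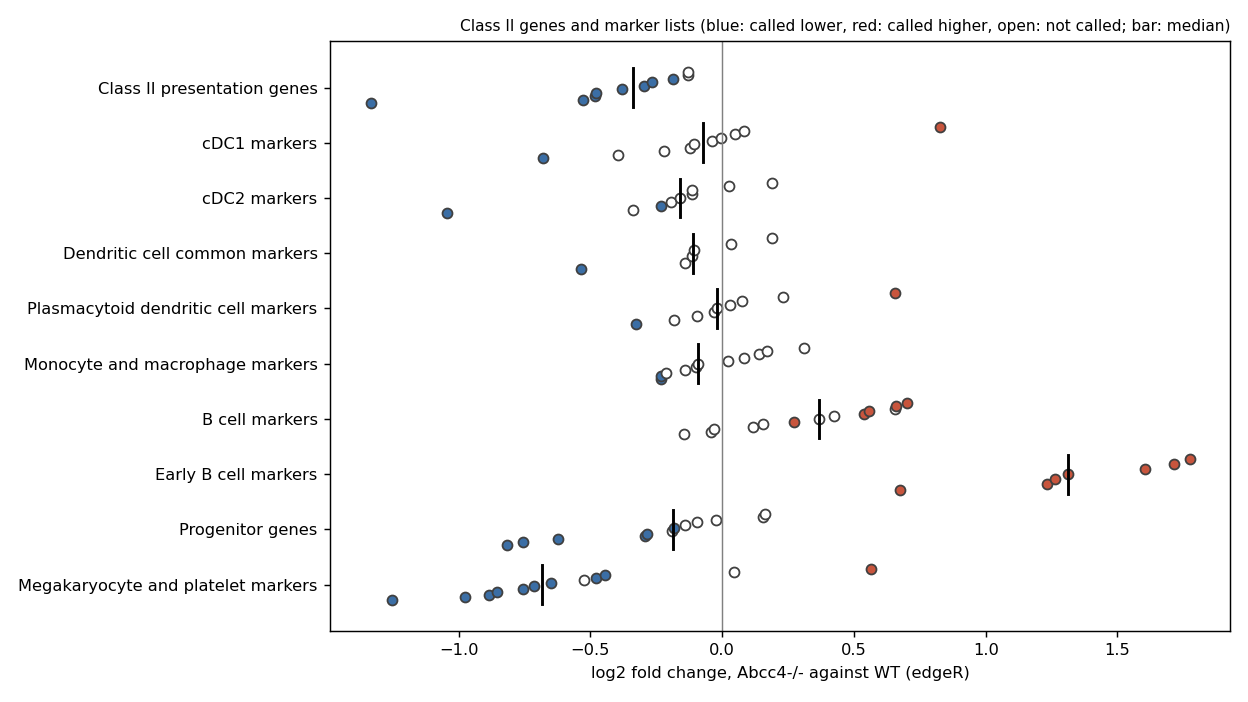
Log2 fold change of Abcc4-/- against WT (x axis) for each tested gene of the 10 class II presentation genes and of 9 marker lists (rows); blue points were called lower, red higher and open points not called, and black bars are medians. The 2 B cell rows lie mostly to the right of 0, the class II presentation row wholly to the left, and the dendritic cell rows around or slightly left of 0.

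Genes of costimulation and dendritic cell maturation were called in 1 of 10 cases by edgeR and limma-voom and in 3 by DESeq2. Over all genes tested, edgeR called 17.3% in either direction. Cd274, which encodes the inhibitory ligand PD-L1, fell from 21.8 ± 1.95 to 15.2 ± 0.525 CPM (SD, n = 3; edgeR adjusted p = 0.0007) and kept its call without any single library (0.0005 to 0.0077). All 10 had negative log2 fold changes (median -0.26), where 8209 of 16493 genes tested did. For 5 the groups lay apart with Abcc4-/- lower, where 18.3% of all genes tested did. The other genes of this list given here were named after their values were seen. Cd83, a maturation marker, had 11.3, 13.6 and 30.4 CPM in WT against 8.78, 7.57 and 7.22 CPM in Abcc4-/-, without overlap (log2 fold change -1.23; edgeR adjusted p = 0.159). Ccr7, the receptor that guides mature dendritic cells to lymph nodes, had 17.1, 22.4 and 30.9 CPM against 15.0, 12.6 and 14.1 CPM, also without overlap (log2 fold change -0.76; edgeR adjusted p = 0.0941). Cd80, Cd86 and Cd40, which give the second signal to T cells, were not called either (edgeR adjusted p = 0.170, 0.384 and 0.794). Among 12 progenitor genes 6 were called lower and 0 higher by edgeR (at an unadjusted p below 0.05, 1 was higher; by DESeq2 and limma-voom, 0). Over all genes tested, 8.68% were called lower by edgeR. The progenitor count called lower fell to 3 without WT replicate 2, WT replicate 3 or Abcc4-/- replicate 1. Meis1 fell 1.54-fold and Kit 1.22-fold (edgeR adjusted p = 0.0012 and 0.0164). Kit lost its call without WT replicate 2 or Abcc4-/- replicate 1 (0.0568 and 0.0518).

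Markers of other cell types were called as well. Again, the background over all genes tested was 8.68% called lower and 8.61% higher by edgeR. Of 12 megakaryocyte and platelet markers, 9 were called lower and 1 higher, and their sum stood at 288 to 347 CPM in WT and 199 to 239 CPM in Abcc4-/-. Without Abcc4-/- replicate 1, 4 were called lower, and the 1 called higher was lost without WT replicate 2 or 3 or Abcc4-/- replicate 2 or 3 and on both TPM scales. Of 9 neutrophil markers, 6 were called higher and 1 lower, and their sum stood at 21172 to 27514 CPM in WT and 36633 to 39221 CPM in Abcc4-/-. The 1 called lower became 0 without WT replicate 1 or 2 or any 1 of the Abcc4-/- libraries, and 2 without WT replicate 3. Of 9 T and NK cell markers 7 were called higher, and for 7 the groups lay apart in that direction, where 3041 of 16493 genes tested did. The sums of all 9 overlapped (101 to 126 CPM in WT, 123 to 137 CPM in Abcc4-/-). Nkg7 and Cd4, named after their values were seen and not called, made up most of these sums. Their means were 87.2 and 13.9 CPM in WT and 79.6 and 14.1 CPM in Abcc4-/-. Of 7 eosinophil, basophil and mast cell markers 3 were called lower, and 1 without WT replicate 1, 2 or 3 or without a low-count filter. The part of these differences in the class II values was not tested.

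The genes most like H2-Aa, H2-Ab1, H2-Eb1 and Cd74 over the 6 libraries, by Pearson correlation with their mean standardised log2 CPM, were Klk8, Dph1, Epb41l4aos, Gna15 and Nus1 (r = 0.991, 0.990, 0.988, 0.987 and 0.979). This is a description over 6 libraries that share 2 genotypes. Of 11103 genes compared, 221 (1.99%) had r above 0.9. None of the 5 was called by edgeR between the genotypes (adjusted p = 0.0764 to 0.306).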

How the data were processed

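The submitters' processing notes name STAR 2.7, RSEM 1.3.1 and mm10. The annotation release: not given in the sources used here. Libraries were stranded mRNA, per the labels' protocols. The authors deposited expected counts per gene, not normalized, and TPM, scaled by length within each sample. Spike-in entries (92, total count 0) were left out. Groups came from the labelled genotype and replicate numbers from the titles.

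Deposited expected counts were rounded. The test was edgeR 4.0.16 under R 4.3.3, with TMM factors, default low-count filter, robust quasi-likelihood test, Benjamini-Hochberg adjustment over all 16493 genes. SE and 95% intervals were derived from edgeR's F statistic. Single ratios used exact permutation tests. Alternatives were other normalizations, DESeq2 1.42.0, limma-voom (limma 3.58.1), other filters, a replicate block, thinning to the smallest library, log2 TPM with pseudocounts of 1 and 0.1, summed H2-DMb counts and each library left out. The test was checked on simulated counts.

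The 10 genes and the 17 context lists were chosen with earlier results of these data known. The 10 genes are left out of the other lists, where 4 genes appear more than once. Named were the 10 genes, up to 3 called genes per list with the smallest adjusted p (where none was called, the smallest p), the class II region neighbours, and the 5 genes with the most similar profile and a mean log2 CPM of at least 1; others are marked as named after their values were seen. The values of 1 gene that this rule names are not reported here.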

Additional observations from a re-analysis of the deposited data

How the results depend on the processing

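All 172 log2 fold changes of the 10 genes under the alternatives were negative, and 163 stayed on their side of the threshold. Among the 172, the value of the summed H2-DMb counts is entered for H2-DMb1 and again for H2-DMb2. Under each alternative that kept all 6 libraries and counted the H2-DMb genes apart, 8 of the 10 were called lower, the replicate block included; with 1 library left out, 6 to 8 were. Same-numbered libraries did not deviate together (r = -0.0464, -0.0261 and -0.0145 across genes). With 3 libraries per group this cannot settle whether the numbers pair the samples. With the block 3157 genes were called in all, against 2852. Under the block 4 early B cell and 3 B cell markers were called higher, Cd79a, Spib, Adgre1, Epx and Prg2 were not called (adjusted p = 0.105, 0.0783, 0.0879, 0.106 and 0.157), and Col11a2 was (0.0070). With 1 library left out, H2-DMa ranged from -0.22 to -0.15 and Ciita from -0.33 to -0.22, and both lost their calls in some of these fits. The summed counts of H2-DMb1 and H2-DMb2 were called lower at -0.24, while H2-DMb2 counted apart was not called under any alternative. With 1 library left out, genes called ranged from 1760 to 2415 in all, 823 to 1247 higher and 897 to 1265 lower, and genes of the context lists called lower from 15 to 22. Genes called higher numbered 599 on log2(TPM + 1) and 602 on log2(TPM + 0.1), against 1420; the medians of all genes were -0.06 and -0.08 there. Region neighbours near 0 changed sign. H2-Ke6 was -0.00906 with library totals, -0.00094 with 10 counts required, -0.0033 after thinning, -0.0233 and -0.0237 on the TPM scales, and -0.0783 to 0.0620 with 1 library left out. H2-Ob was -0.0015 with library totals, -0.0965 and -0.0980 on the TPM scales and -0.0720 to 0.0659 with 1 library left out. Btnl2 was -0.0168 and -0.0387 on the TPM scales, and Ring1 0.00044 without a filter. With 1 library left out, Ring1 ranged from -0.0449 to 0.0293, Btnl2 from -0.14 to 0.20, Tap1 from -0.0892 to 0.00941, Tap2 from -0.112 to 0.0451 and H2-Eb2 from -0.15 to 0.0943. Depth limits Xcr1 most, at 22 to 53 counts a library.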
